A study of Rattus norvegicus with 6 samples.

Results

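The 8 genes described here encode the filaments and microtubule proteins of neurons and a protein of growing axons. They are Nefl, Nefm, Nefh, Ina, Prph, Gap43, Tubb3 and Stmn2, taken by symbol from the 33294 gene symbols of the count files. All 8 were expressed highly enough to be among the 17292 genes tested. Nefl and Gap43 were chosen by their log2 fold changes between the groups in these same libraries, which had been noticed to be opposite, so their differences between groups are given as a description and without a test. The other 6 were added as relatives of these genes and not for their values.

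Pituitary glands came from male Sprague-Dawley rats aged 11 weeks. Of these, 3 were offspring of dams whose osmotic pump under the skin released nicotine tartrate (6 mg/kg per day) during pregnancy, and 3 were offspring of dams whose pump held saline. Each rat gave 1 library, and the labels do not say which rats shared a litter. The rated life of the pump ran past birth and its removal is not described, so exposure before birth and during nursing cannot be told apart.

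Neurofilaments are the intermediate filaments of axons. They are built from a light (Nefl), a medium (Nefm) and a heavy (Nefh) subunit together with alpha-internexin (Ina) or, in many peripheral neurons, peripherin (Prph), and their amount sets the calibre of the axon. Gap43 is a membrane-bound protein of growth cones that is abundant while axons grow or regenerate, Tubb3 is the beta-tubulin used as a marker of neurons, and Stmn2 is a growth cone protein that destabilises microtubules. In the pituitary, axons from the hypothalamus end in the posterior lobe and also supply the intermediate lobe, while endocrine cells themselves use many genes of neurons.

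Totals lay between 28318383 and 85977002 counts per library, and each nicotine library was deeper than the control library with the same number. In the list of reads per library in the supplement of the study the controls are the deeper group instead, so the directions given here rest on the group names of the deposited files, and which listing names the groups correctly was not tested. The extraction protocol in the labels describes testis tissue, but all 8 anterior pituitary markers passed the filter on low counts, with Gh1 (growth hormone) between 52430 and 115800 CPM (counts scaled to library size, with TMM factors). Markers of the lobes differed between libraries. Pax7, which marks melanotrophs of the intermediate lobe, was at 18.5, 25.7 and 93.6 CPM in control replicates 1, 2 and 3 and at 12.5, 47.9 and 18.8 CPM in nicotine replicates 1, 2 and 3. Avp, the vasopressin gene whose mRNA is found in axons of the posterior lobe, was at 32.3, 6.56 and 2.72 CPM in the controls and at 35.7, 129 and 33.6 CPM after nicotine. Control replicate 3 thus stood apart with the highest Pax7 and the lowest Avp, and nicotine replicate 2 with the highest Avp. In whole glands, fewer cells of a type and less RNA per cell cannot be told apart.

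In the whole table, edgeR's quasi-likelihood test called 0 genes (0%), where a call needs a fold change above 1.5 and an adjusted p below 0.1, against 1011 genes (5.85%) at an unadjusted p under 0.05. DESeq2 called 62 of 17876 genes (0.347%) with the same thresholds. Groups did not overlap for 1058 genes (6.12%) with nicotine higher and for 888 genes (5.14%) with nicotine lower.

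The light subunit Nefl was high in nicotine replicates 1 and 2 only. Its level was 115, 139.5 and 41.7 CPM in nicotine replicates 1, 2 and 3, and 42.7, 48.7 and 48.4 CPM in control replicates 1, 2 and 3. Nicotine replicate 3 was the lowest of all 6 libraries, so the groups overlapped although their means were 98.8 ± 50.9 and 46.6 ± 3.39 CPM (SD, n = 3 each). The mean after nicotine was 2.12 times that in controls, with a log2 fold change of 1.08 (standard error, SE, 0.34). Leaving out nicotine replicate 3 raised that value to 1.45, and leaving out nicotine replicate 2 gave 0.74. Within the nicotine group the highest library was 3.34 times the lowest, against 1.14 times among controls. On the log2 scale the SD among nicotine libraries was 0.93, and 3.76% of all genes tested had a larger one. The spread of Nefl among controls was small, with 81.8% of genes showing a larger SD there.

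Nefm, the medium subunit, shared the high value of nicotine replicate 1. It was at 51.5, 30.9 and 21.8 CPM in nicotine replicates 1, 2 and 3 and at 18.8, 27.8 and 17.1 CPM in control replicates 1, 2 and 3. Only nicotine replicate 3 fell inside the range of the controls. The means were 34.7 ± 15.2 and 21.2 ± 5.80 CPM (SD, n = 3 each), and the log2 fold change was 0.71 (SE 0.30, edgeR adjusted p = 0.839), which did not pass. Without nicotine replicate 1 it was 0.31.

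Nefh, the heavy subunit that carries the long phosphorylated tail, did not follow the other subunits. Its level was 6.62, 2.91 and 8.11 CPM in nicotine replicates 1, 2 and 3, and 4.17, 4.52 and 5.34 CPM in the controls. Nicotine replicate 2, which was highest for Nefl, was lowest for Nefh, and nicotine replicate 3, which was lowest for Nefl, was highest for Nefh. The group means of 5.88 ± 2.68 and 4.68 ± 0.597 CPM (SD, n = 3 each) differed by less than the spread among nicotine libraries, with a log2 fold change of 0.32 (SE 0.34, edgeR adjusted p = 0.87). Leaving out nicotine replicate 3 gave 0.02, and leaving out nicotine replicate 2 gave 0.64.

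**Figure D1:**
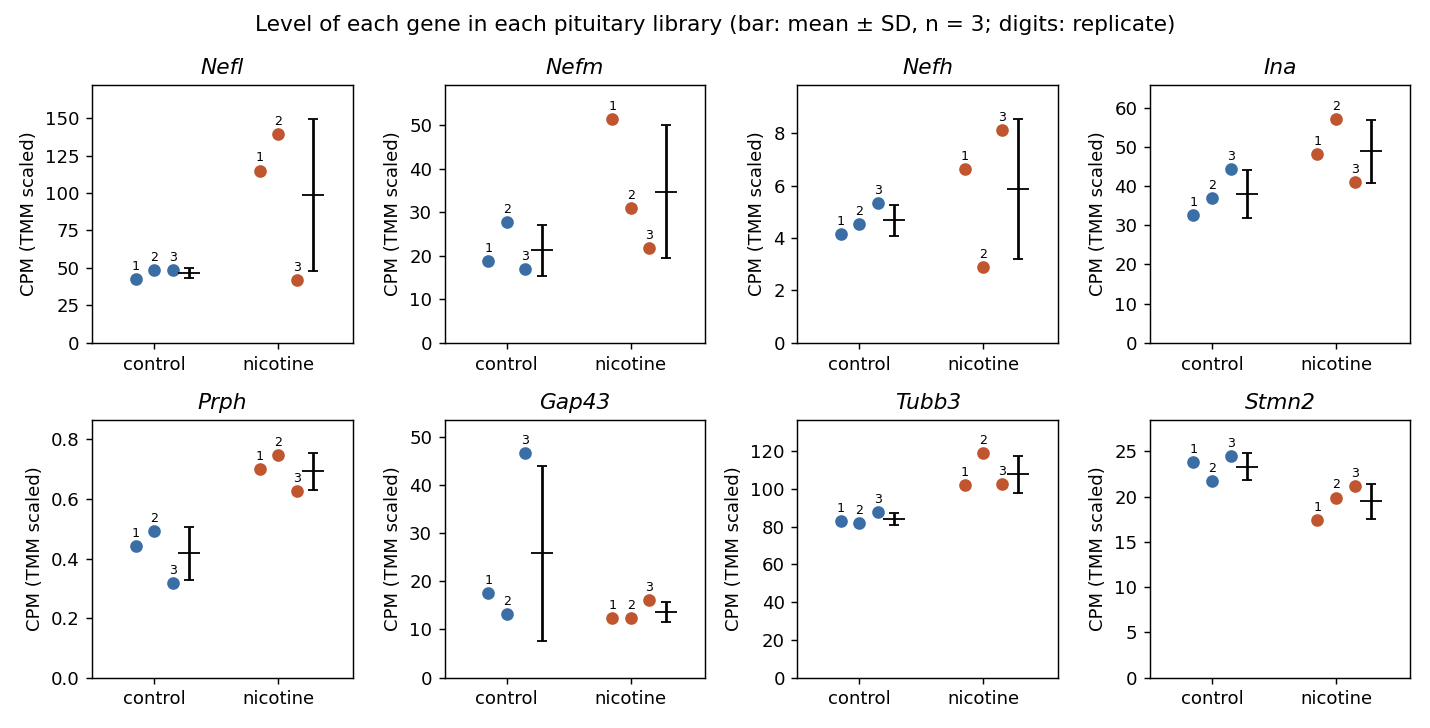
Level of each of the 8 genes in CPM after TMM scaling (y axis, from 0) in control and nicotine libraries (points, numbered by replicate), with the mean ± SD of 3 libraries beside them. Nefl was high in nicotine replicates 1 and 2, and Gap43 in control replicate 3, while Prph, Tubb3 and Stmn2 are the genes whose groups do not overlap.

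Ratios of counts within a library are free of the scaling between libraries. There were 17.4, 48.0 and 5.15 Nefl counts for each Nefh count in nicotine replicates 1, 2 and 3, but 10.2, 10.8 and 9.07 in control replicates 1, 2 and 3. The controls therefore held a narrow ratio of light to heavy subunit counts, and the nicotine libraries lay on both sides of it. For each Nefm count there were 2.23, 4.51 and 1.92 Nefl counts after nicotine and 2.28, 1.75 and 2.84 in controls, with overlapping groups. These ratios depend on transcript length, so they are compared between libraries and not read as amounts of one subunit against another. They also rest on Nefl and are given without a test.

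Alpha-internexin (Ina), which co-assembles with the neurofilament subunits, varied less. Ina was at 48.2, 57.2 and 41.0 CPM in nicotine replicates 1, 2 and 3 and at 32.5, 36.8 and 44.4 CPM in control replicates 1, 2 and 3. The groups overlapped through nicotine replicate 3 and control replicate 3. The log2 fold change was 0.36 (SE 0.18, edgeR adjusted p = 0.839), with means of 48.8 ± 8.10 and 37.9 ± 6.03 CPM (SD, n = 3 each).

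Peripherin (Prph) had the fewest counts of the genes, with 12 to 69 counts per library. Its level was 0.70, 0.749 and 0.628 CPM in nicotine replicates 1, 2 and 3, and 0.443, 0.492 and 0.317 CPM in the controls. All nicotine libraries lay above all controls (p = 0.1 in an exact permutation test, two-sided, which with 3 against 3 cannot give less). Counting error alone is wide at this depth: the 95% exact Poisson interval ran from 0.444 to 0.862 CPM in nicotine replicate 3 and from 0.321 to 0.721 CPM in control replicate 2. The log2 fold change of 0.72 (SE 0.40, edgeR adjusted p = 0.846) did not pass.

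Tubb3, the neuronal beta-tubulin, had the steadiest levels. It was at 102, 119 and 102 CPM in nicotine replicates 1, 2 and 3 and at 82.9, 81.8 and 87.5 CPM in control replicates 1, 2 and 3. The groups did not overlap (p = 0.1, exact permutation test), with means of 108 ± 9.68 and 84.1 ± 3.06 CPM (SD, n = 3 each). Its log2 fold change was 0.36 (SE 0.15, edgeR adjusted p = 0.839), which did not pass, and leaving out 1 library at a time gave 0.27 to 0.40. Tubulin genes are close in sequence, and how reads shared between them were counted is not stated.

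Stmn2, the microtubule-destabilising protein of growth cones, went the other way. It was at 17.4, 19.9 and 21.2 CPM in nicotine replicates 1, 2 and 3 and at 23.8, 21.7 and 24.5 CPM in the controls. Every nicotine library was below every control (p = 0.1, exact permutation test), but nicotine replicate 3 and control replicate 2 lay close together. The log2 fold change was -0.26 (SE 0.16, edgeR adjusted p = 0.851), with means of 19.5 ± 1.92 and 23.3 ± 1.47 CPM (SD, n = 3 each).

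For each Tubb3 count there were 0.171, 0.168 and 0.207 Stmn2 counts in nicotine replicates 1, 2 and 3 and 0.287, 0.265 and 0.280 in control replicates 1, 2 and 3. This ratio was lower in all nicotine libraries. The pair of genes was set against each other after their values were seen, and the ratio has no test.

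Of the 6 genes that were not noticed for their values, 0 were called by edgeR, where 0% of all genes tested were, and 0 by DESeq2. Their adjusted p lay between 0.839 and 0.87 in edgeR, and 2 of the 6, Nefm and Tubb3, had an unadjusted p under 0.05. Groups did not overlap with nicotine higher for Prph and Tubb3 (6.12% of all genes tested) and with nicotine lower for Stmn2 (5.14%). The libraries are those in which Nefl and Gap43 were noticed, so nothing is read from these counts.

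**Figure D2:**
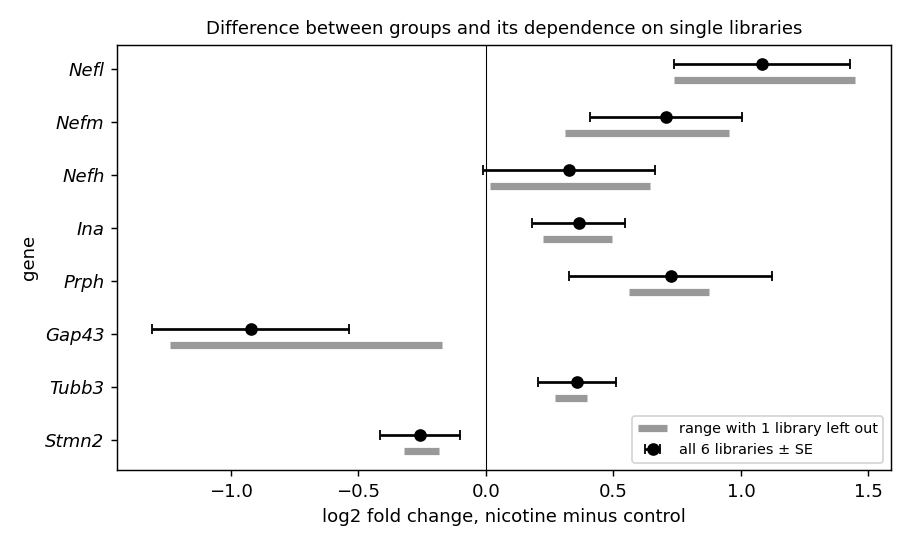
Log2 fold change of nicotine minus control (x axis) for each gene, with its standard error over all 6 libraries (black) and the range when 1 library was left out (grey). The value for Gap43 ran from -1.24 to -0.17, and that for Nefl from 0.74 to 1.45.

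Promoter sequences are shown for Tubb3, Prph and Ina because no other member was matched, and not for the direction of their values. The sequences are the 250 bases before the start of each gene from RefSeq (GRCr8, 5′ to 3′ on the strand of the gene). Of the 8 genes, 3 were matched, and Nefl, Nefm, Nefh, Gap43 and Stmn2 were not. Capitals mark every match, on either strand, of the motifs searched. The TATA box was searched as TATAAA and the GC box as GGGCGG. The E-box was CANNTG, the cAMP response element was TGACGTCA and the AP-1 site was TGANTCA. The CCAAT box, named by its letters, and the NRF1 site were searched as well. No matches of different motifs overlapped in these windows.
Tubb3, GRCr8 chr19:68365437-68365686, strand +: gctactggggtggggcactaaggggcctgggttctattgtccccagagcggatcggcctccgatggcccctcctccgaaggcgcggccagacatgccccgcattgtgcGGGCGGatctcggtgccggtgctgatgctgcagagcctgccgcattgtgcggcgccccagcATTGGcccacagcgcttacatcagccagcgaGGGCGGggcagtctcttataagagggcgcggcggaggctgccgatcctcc
Prph, GRCr8 chr7:132097039-132097288, strand +: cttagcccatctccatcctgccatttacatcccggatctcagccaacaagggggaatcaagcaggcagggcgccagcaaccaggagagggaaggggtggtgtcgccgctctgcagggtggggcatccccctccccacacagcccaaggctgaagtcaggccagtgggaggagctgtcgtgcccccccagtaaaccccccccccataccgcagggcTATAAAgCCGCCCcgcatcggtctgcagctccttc
Ina, GRCr8 chr1:255837879-255838128, strand +: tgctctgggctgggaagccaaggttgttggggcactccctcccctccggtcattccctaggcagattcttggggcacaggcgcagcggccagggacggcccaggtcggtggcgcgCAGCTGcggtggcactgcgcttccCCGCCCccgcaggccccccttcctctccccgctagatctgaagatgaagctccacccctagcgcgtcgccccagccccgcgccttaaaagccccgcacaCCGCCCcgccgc

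GC boxes were in all 3 windows and in 30.5% of 33469 promoters of the same length. A TATA box stood in the Prph window, 35 bases before the start, next to its GC box, and 12.9% of all promoters hold one. The CCAAT motif was in the Tubb3 window and in 34% of all promoters, and the E-box was in the Ina window and in 65.5%. No match was present for the cAMP response element, AP-1 or NRF1 motifs, which 1.59%, 6.34% and 0.762% of all promoters hold. The GC content was 68% for Tubb3, 64.4% for Prph and 70.8% for Ina, against a median of 51.2% over all promoters. A match is a run of letters and not a shown binding site.

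Gap43, the growth cone protein, was set apart by a single library. It was at 17.6, 13.2 and 46.5 CPM in control replicates 1, 2 and 3 and at 12.4, 12.3 and 16.0 CPM in nicotine replicates 1, 2 and 3. Control replicate 3 was above all other libraries, while control replicate 2 lay within the range of the nicotine group. The means were 13.6 ± 2.12 CPM after nicotine and 25.8 ± 18.1 CPM in controls (SD, n = 3 each). Its log2 fold change of -0.92 (SE 0.39) became -0.17 (SE 0.22) without control replicate 3. Among controls the SD on the log2 scale was 0.95, which 2.89% of all genes tested exceeded, and among nicotine libraries it was 0.22, which 65.1% exceeded.

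Gap43 and Stmn2 counts kept close to a fixed ratio outside that library. There were 0.715, 0.619 and 0.758 Gap43 counts for each Stmn2 count in nicotine replicates 1, 2 and 3, 0.741 and 0.607 in control replicates 1 and 2, and 1.90 in control replicate 3. Stmn2 was also highest in control replicate 3, yet at 24.5 CPM it was within 1.13 times the lowest control. For each Tubb3 count there were 0.122, 0.104 and 0.157 Gap43 counts in nicotine replicates 1, 2 and 3. Control replicates 1, 2 and 3 had 0.212, 0.161 and 0.532. This ratio was lower in all nicotine libraries, though nicotine replicate 3 and control replicate 2 lay close together, and it has no test. The counts of Nefl for each Gap43 count were 9.25, 11.3 and 2.60 after nicotine and 2.43, 3.71 and 1.04 in controls. The opposite values of Nefl and Gap43 thus came from different libraries, nicotine replicates 1 and 2 for Nefl and control replicate 3 for Gap43.

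**Figure D3:**
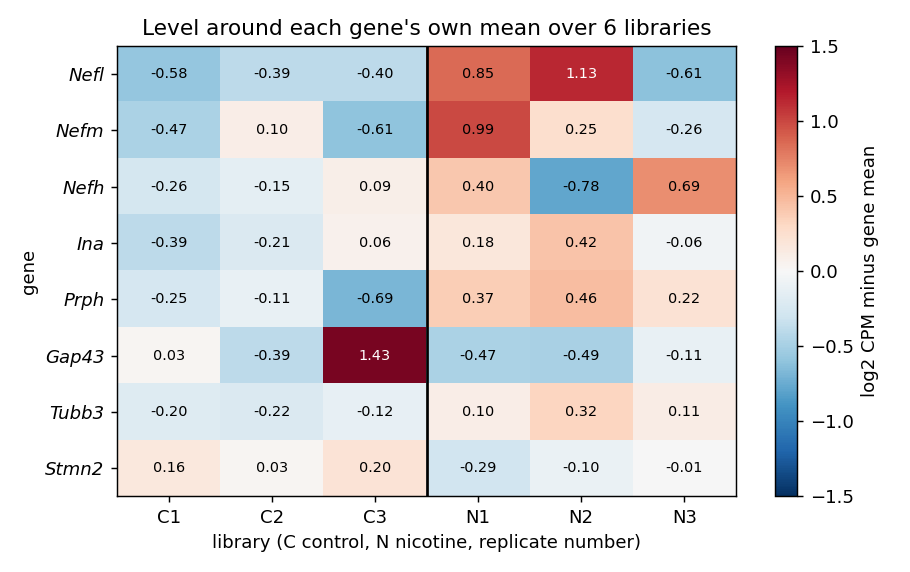
Log2 CPM of each gene (rows) in each library (columns, C control and N nicotine) minus the mean of that gene over the 6 libraries. The extreme values are 1.43 for Gap43 in control replicate 3 and 1.13 for Nefl in nicotine replicate 2, and Nefh is at -0.78 in nicotine replicate 2.

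Likeness to Nefl and to Gap43 was measured over the 6 libraries as the root mean square difference of log2 CPM after centring each gene. Among the other members, Nefm lay closest to Nefl, at 0.45, and was in place 97 of all genes tested. Ina, at 0.51, was in place 295 and Prph, at 0.52, in place 407. Nefh was far from it, at 0.99, and Gap43 at 1.18. The member closest to Gap43 was Stmn2, at 0.56 and in place 1208. A gene with the same level in every library would lie at 0.71 from Nefl and at 0.67 from Gap43. Stmn2 was thus only slightly closer to Gap43 than such a gene. These distances describe 6 libraries of both groups and carry no test.

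The 5 genes with the smallest distance to Nefl were Efr3b, RGD1561442, LOC120102909, Stac2 and Cabp7, at 0.27 to 0.28. Efr3b, which holds a lipid kinase at the plasma membrane, was at 93.7, 95.8 and 40.8 CPM in nicotine replicates 1, 2 and 3 and at 38.7, 60.8 and 50.4 CPM in controls. Stac2, an adaptor of voltage-gated calcium channels, was at 2.27, 2.43 and 1.12 CPM after nicotine and at 0.775, 1.21 and 0.740 CPM in controls. Cabp7, a calcium-binding protein gene, was at 1.38, 2.19 and 0.545 CPM after nicotine and at 0.775, 0.946 and 0.977 CPM in controls. Each of these 3 was lower in nicotine replicate 3 than in the other nicotine libraries, as Nefl was. They were chosen for likeness to Nefl in these same libraries, so this is no separate result.

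For Gap43 the closest genes were Sgcz, Zswim2, Il7, Kit and Clec4a2, at 0.16 to 0.20. Kit, a receptor tyrosine kinase gene, had the highest CPM of them, at 12.9, 11.99 and 28.0 CPM in control replicates 1, 2 and 3 and at 8.89, 8.04 and 12.7 CPM after nicotine. Sgcz, a sarcoglycan gene, was at 1.29, 0.813 and 2.46 CPM in controls and at 0.764, 0.782 and 0.892 CPM after nicotine. Each of the 5 was highest in control replicate 3, and Zswim2, Il7 and Clec4a2 were below 1 CPM in every library. The 5 were chosen for likeness to Gap43 in these same libraries, so the shared peak is no separate result.

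Other genes of the neuronal cytoskeleton were taken from 4 lists, and 0 of their genes were called by edgeR (background 0%) or by DESeq2. Of the 17 neuronal microtubule genes, all tested, 12 had a log2 fold change above 0 and 5 below, with a median of 0.12, against 0.008 over all genes tested. The highest were Map1b, at 0.52 (SE 0.17), and Map1a, at 0.47 (SE 0.16), which encode microtubule-associated proteins of axons and dendrites. Map1b was at 153, 136 and 156 CPM in nicotine replicates 1, 2 and 3 and at 88.9, 114 and 106 CPM in controls, so the groups did not overlap, and the same held for Map1a (2 of 17 genes with nicotine higher, against 6.12% of all genes tested). At the low end were Stmn4, at -0.56 (SE 0.44), and Stmn3, at -0.21 (SE 0.21), relatives of Stmn2, both with overlapping groups. Adjusted p lay between 0.807 and 0.98 in this list.

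Among 5 other intermediate filament genes, 4 were above 0 and 1 below, with a median of 0.29. Nes (nestin), a filament of progenitor cells, had a log2 fold change of 1.06 (SE 0.35, edgeR adjusted p = 0.807). It was at 10.5, 3.77 and 7.85 CPM in nicotine replicates 1, 2 and 3 and at 2.84, 4.14 and 3.54 CPM in controls, so nicotine replicate 2 lay among the controls. Des (desmin), the filament of muscle cells, was at 0.69. The lowest values were 0.10 for Vim (vimentin) and -0.64 for Gfap, the filament of glia, which was at 14.8 CPM in control replicate 2 against 3.10 to 6.00 CPM in the other 5 libraries.

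Of 21 axon growth and growth cone genes 19 were tested, without Sprr1a and Klf7, and 13 were above 0 and 6 below, with a median of 0.12. Groups did not overlap for 4 of the 19, Ncam1, Nfasc, Kif5a and Kif1a, with nicotine higher, against 6.12% of all genes tested. Kif5a, a motor that carries neurofilaments along axons, was at 2.04, 2.93 and 3.70 CPM in nicotine replicates 1, 2 and 3 and at 1.96, 1.25 and 0.977 CPM in controls. Its log2 fold change of 1.07 (SE 0.35, edgeR adjusted p = 0.807) was the highest of the list, followed by 0.67 for Sox11. Atf3, a transcription factor induced by nerve injury, was lowest at -0.90 (SE 0.43), and Marcks was at -0.31. Basp1, a growth cone protein often grouped with Gap43, was at 74.4, 63.3 and 84.3 CPM in control replicates 1, 2 and 3 and at 87.8, 75.0 and 68.3 CPM after nicotine, without the peak of Gap43 in control replicate 3. It was picked out after its values were seen.

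Regulators of neuronal genes gave no common direction, with 5 above 0 and 4 below among 9 tested of 10 listed (Igf2bp1 did not pass the filter) and a median of 0.05. Elavl2, an RNA-binding protein of neurons, was at 13.2, 11.6 and 11.3 CPM in nicotine replicates 1, 2 and 3 and at 19.9, 15.7 and 18.6 CPM in controls. These groups did not overlap, with nicotine lower (1 of 9 genes, against 5.14% of all genes tested). Its log2 fold change was -0.59 (SE 0.17, edgeR adjusted p = 0.807). The highest values of the list were 0.56 for Elavl3 and 0.39 for Neurod1, both with overlapping groups.

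**Figure D4:**
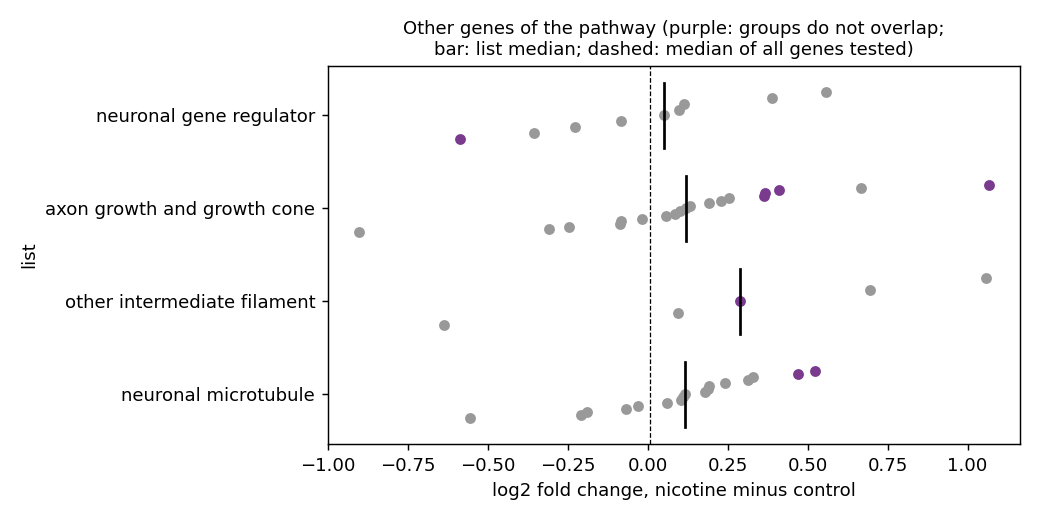
Log2 fold change of nicotine minus control (x axis) for every tested gene of the 4 lists (points), with the median of each list (bar) and of all genes tested (dashed line, 0.008). Purple points are genes whose groups do not overlap, and medians run from 0.05 to 0.29.

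Markers of the lobes were set beside Gap43 and Nefl in each library. The summed level of the 4 intermediate lobe markers (Pomc, Pcsk2, Tbx19 and Pax7) was 45290, 36290 and 72270 CPM in control replicates 1, 2 and 3 and 27450, 20680 and 46580 CPM in nicotine replicates 1, 2 and 3. Control replicate 3 was highest for this sum, as for Gap43, and Pcsk2, a prohormone convertase, was at 278 CPM there against 86.4 to 140 CPM in the other libraries. Tbx19, a transcription factor of Pomc-expressing cells, was instead highest in nicotine replicate 2, at 85.4 CPM against 74.0 CPM in control replicate 3, and its log2 fold change was -0.0039. Pax7 was at 93.6 CPM in control replicate 3 and at 47.9 CPM in nicotine replicate 2, where Gap43 was lowest, at 12.3 CPM. Pomc makes up nearly all of the sum and is also made by corticotrophs of the anterior lobe. The part of the intermediate lobe in the Gap43 values was not tested.

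All 6 posterior lobe markers (Avp, Oxt, Rax, Nkx2-1, Col25a1 and Lhx2) had a log2 fold change above 0, with a median of 1.55 and 0 called. Groups did not overlap for 4 of them, with nicotine higher, against 6.12% of all genes tested. An unadjusted edgeR p under 0.05 was found for 5 of the 6, against 5.85% of all genes tested. The sum of the 6 markers was 86.3, 241 and 90.5 CPM in nicotine replicates 1, 2 and 3 and 81.4, 29.7 and 7.45 CPM in control replicates 1, 2 and 3. Nicotine replicate 2 was highest for this sum and for Nefl. Nicotine replicates 1 and 3 had nearly the same sum but 115 and 41.7 CPM of Nefl, and control replicates 1 and 3 had 42.7 and 48.4 CPM of Nefl with sums of 81.4 and 7.45 CPM. The part of the posterior lobe in the Nefl values was not tested.

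**Figure D5:**
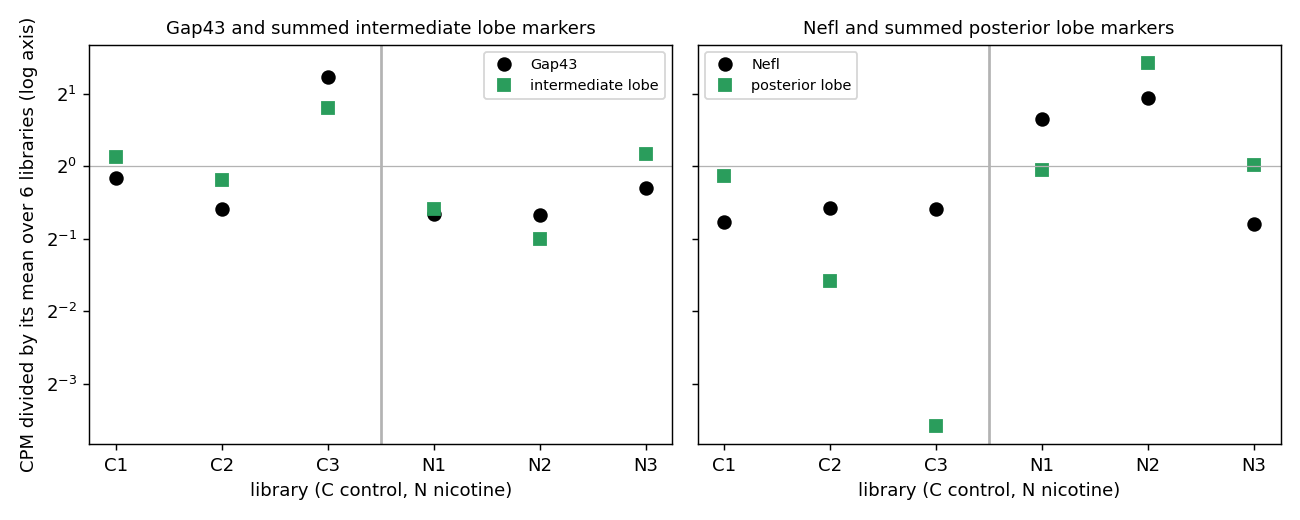
Left, Gap43 (circles) and the summed intermediate lobe markers (squares), and right, Nefl (circles) and the summed posterior lobe markers (squares), each divided by its own mean over the 6 libraries (log axis). Gap43 and the intermediate lobe sum are both highest in control replicate 3, at 2.37 and 1.75, and the posterior lobe sum is lowest there, at 0.083.

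Neurons and glia were looked at in 5 further lists, for sensory ganglion, autonomic and central neurons, Schwann cells and oligodendrocytes. Of 10 sensory ganglion markers 5 passed the filter, Prdm12 was at 0 in every library and Pou4f1 reached at most 0.119 CPM. Their sum ran from 30.0 to 122 CPM after nicotine and from 21.0 to 36.5 CPM in controls, and it was set by Tac1 (substance P), at 96.9 CPM in nicotine replicate 2 against 10.5 to 25.7 CPM elsewhere. P2rx3 and Calca also passed and lay at most at 6.72 and 13.9 CPM. Of 8 autonomic neuron markers 4 passed, with sums of 7.65 to 12.1 CPM after nicotine and 7.98 to 13.4 CPM in controls. Hand2, which is among the markers that define these neurons, was at or under 0.066 CPM in every library, and the highest CPM values were those of Slc18a2, Slc6a2 and Th. Slc6a2, the noradrenaline transporter, was at 0.912, 1.46 and 1.603 CPM in nicotine replicates 1, 2 and 3 and at 3.36, 4.80 and 3.94 CPM in controls, which DESeq2 called (1 of 8 listed, against 0.347% of all genes, adjusted p = 0.000802) and edgeR did not (adjusted p = 0.558).

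Central neuron markers summed to 324 to 381 CPM after nicotine and 317 to 358 CPM in controls, with 7 of 8 tested. Snap25, Syt1 and Slc17a6 had the highest CPM, endocrine cells also express the first pair, and Gad2 had no count outside nicotine replicate 2. Schwann cell markers, all 8 tested, summed to 42.6 to 59.7 CPM after nicotine and 43.7 to 107 CPM in controls, with Mbp and Pmp22 among the highest in CPM. Control replicate 2 set the upper end, with Mbp (myelin basic protein) at 61.4 CPM against 12.7 to 23.2 CPM elsewhere. Of 6 oligodendrocyte markers 2 passed, Cnp and Mobp, and the sum ran from 39.7 to 57.9 CPM after nicotine and from 39.3 to 51.1 CPM in controls. Mobp, Mag, Mog, Opalin and Ermn were also highest in control replicate 2, and Opalin and Ermn had no count in 4 and 5 of the libraries. None of the 8 genes had its highest value in that library.

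Meningeal markers were lower in nicotine replicate 2 than in any other library, with a sum of 208 CPM against 540.0 and 654 CPM in the other nicotine libraries and 682 to 819 CPM in controls. All 8 were tested, with Dcn, Ptgds and Lum the highest in CPM, and 7 had a log2 fold change below 0, with a median of -0.74 and 0 called by edgeR. Groups did not overlap for 4 of the 8, with nicotine lower, against 5.14% of all genes tested. An unadjusted edgeR p under 0.05 was found for 4 of the 8, against 5.85% of all genes tested. DESeq2 called 1 of the 8, Foxd1 (adjusted p = 0.0212), against 0.347% of all genes. The part of these cells in the values of Nefl in nicotine replicate 2 was not tested.

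Nefl and Nefm are next to each other in the order of protein-coding genes (RefSeq, GRCr8). Dock5, on the other side of Nefl, was at a mean of 14.9 CPM with a log2 fold change of 0.08, and Kctd9, 3 genes from Nefl, had one of -0.07. Gnrh1, between them, did not pass the filter. Next to Gap43 were Zbtb20, at 0.31, and Lsamp, at 0.22, so neither neighbour had a value below 0. These neighbours were looked up after the values of the 8 genes were seen.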

How the data were processed

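RNA-seq was made from 6 rat pituitary glands, 3 of the nicotine group and 3 controls. Per the study's methods, paired-end stranded reads were mapped to rn7 with HISAT2 (2.1.0 in the submitters' processing notes) and FeatureCounts assigned them to the ncbiRefSeq genes of UCSC. The deposited values are raw counts per gene symbol, which the authors did not normalize. Whether pairs or single reads were counted, the strand setting, and the handling of reads with several positions are not given in the sources used here.

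Calculations used R 4.3.3, edgeR 4.0.16, limma 3.58.1 and DESeq2 1.42.0. The main test was edgeR's quasi-likelihood test, run on the genes kept by filterByExpr, with TMM scaling, no covariate and Benjamini-Hochberg adjustment over all 17292 genes. Calls needed a fold change above 1.5 and an adjusted p below 0.1, as in the study, which used DESeq2. Standard errors are the log2 fold change divided by the root of the F statistic. SDs are over 3 rats. Log2 CPM used a prior count of 2. Intervals cover counting error only. The fit was tested on simulated counts. Exon lengths were not at hand, so levels per length are not compared between genes, and an order of genes by CPM serves only to name them. Replicate numbers are not stated to pair the libraries, and the main test did not pair them.

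The genes and lists were chosen with earlier results of these data known. Named are the 8 genes, from each pathway list the 2 highest and 2 lowest log2 fold changes, from each marker list the 3 genes with the highest CPM and defining markers at 0, and the 5 genes most like Nefl and Gap43. Others were chosen after their values were seen, and a few genes that the rule names are not reported here. Alternatives were DESeq2, RLE or no scaling, other filters, thinning, limma voom with quality weights, a replicate block, and each library left out in turn. DESeq2 without each library was added after seeing the data.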

Additional observations from a re-analysis of the deposited data

How the results depend on the processing

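Of the 8 genes, each kept the direction of its log2 fold change under all alternatives run, and none of the 6 tested genes was called in any of them. For Nefl the value fell to 0.61 and for Gap43 to -0.42 with limma voom and sample quality weights. Gap43 moved by more than the spread between replicates only without control replicate 3, to -0.17 in edgeR and -0.16 in DESeq2. With 1 library left out the value of Nefh ran from 0.02 to 0.64, and that of Nefm from 0.31 to 0.96. The number of genes called over the whole table was 62 with DESeq2 and 30 with no filter. It was 1 with library sizes alone, with at least 10 counts in every library and with limma voom (RT1-CE16 each time), and 0 to 4 with 1 library left out, with RT1-CE16 called without nicotine replicate 2 and S100a8, S100a9, Camp and Ngp without control replicate 2. The replicate block called 2 genes, LOC679963 and Car1, and gave 0.93 for Nefl and -0.71 for Gap43. The labels do not state that the numbers pair the libraries. Deviations of libraries with the same number correlated at 0.026, -0.198 and -0.078, which cannot show whether rats shared a litter or batch. Of the pathway genes 0 were called in the edgeR and limma fits, and 0 to 1 in DESeq2 with 1 library left out, Nes without nicotine replicate 2 and Kif5a without control replicate 1. With a prior count of 0.5, 8 of the 10 genes most like Nefl and Gap43 were shared. What causes these differences was not tested. Levels per length were not computed, so the planned check of their order was not run. With 3 libraries a group, exact tests cannot go below 0.1, and the low counts of Prph limit its precision.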
